A study of Mus musculus with 15 samples.

Results

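Transcripts of the subunits of Polycomb repressive complex 2 (PRC2) were followed in mouse cerebellar granule neuron precursors (GNPs) during development and in medulloblastoma (MB). The 10 genes were taken as a fixed list of symbols: Ezh2, Ezh1, Eed, Suz12, Rbbp4, Rbbp7, Jarid2, Aebp2, Mtf2 and Phf19. All 10 were found among the 21889 genes of the count table, and all 10 were among the 15259 genes tested after the filter on low counts. Poly(A) RNA had been sequenced in 15 libraries, 3 for each of 5 groups. The GNPs were labelled Math1-GFP at E15.5 and WT at P1, P7 and P14, and the MB cells were labelled Ptch1 heterozygous with no age given. Math1 (Atoh1) is the transcription factor of the granule lineage, and Ptch1 encodes the receptor that holds Hedgehog signalling in check. Because only the E15.5 group carried the reporter, age and genotype cannot be told apart at E15.5. All cells were enriched from cerebellum on a Percoll gradient, which leaves other cell types in the preparation. No label says whether the 3 libraries of a group came from separate animals, so the p-values measure the spread between these libraries, which may be technical.

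PRC2 places methyl groups on lysine 27 of histone H3, and the trimethylated form, H3K27me3, marks silent developmental genes. Its catalytic subunit is either Ezh2, which is typical of dividing cells, or Ezh1, which is less active and persists in many cells that have stopped dividing. Eed, which binds H3K27me3 and stimulates the enzyme, and Suz12, the scaffold, complete the core together with the histone-binding proteins Rbbp4 and Rbbp7. Jarid2 and Aebp2 define the PRC2.2 form, and the Polycomb-like proteins Mtf2 and Phf19 take their place in the PRC2.1 form. In the cerebellum, GNPs divide in the external granule layer under the mitogen Sonic hedgehog and then leave the cycle to become granule neurons, and loss of Ptch1 function can turn these precursors into medulloblastoma. The question the design addresses is how gene expression changes as GNPs differentiate and how tumour cells of the same lineage compare.

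The promoters of 4 members are shown because the Ezh2, Suz12 and Phf19 windows share an E2F-type motif, the element bound by the E2F factors of the cell cycle, and the Ezh1 window lacks it. Each sequence runs from 250 bases before to 50 bases after the transcription start, 5′ to 3′ on the transcribed strand, as RefSeq gives it on GRCm38.p6. Capitals mark the E2F letters, searched as TTTCCCGC, TTTGGCGC, TTTGCCGC or TTTCGCGC on either strand. The Ezh2 window is chr6:47594981-47595280 (minus strand), with the motif 4 bases into the transcript. The Suz12 window is chr11:79992856-79993155 (plus strand), with the motif starting at position -219 from the start. The Phf19 window is chr2:34913927-34914226 (minus strand), with the motif on the opposite strand at -208. The Ezh1 window is chr11:101226414-101226713 (minus strand).
Ezh2: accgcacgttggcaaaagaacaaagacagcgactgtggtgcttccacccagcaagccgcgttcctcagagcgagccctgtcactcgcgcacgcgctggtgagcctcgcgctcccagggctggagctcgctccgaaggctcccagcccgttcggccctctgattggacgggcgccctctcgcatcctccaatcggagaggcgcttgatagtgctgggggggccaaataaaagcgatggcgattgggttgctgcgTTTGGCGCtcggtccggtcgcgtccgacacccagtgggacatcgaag
Suz12: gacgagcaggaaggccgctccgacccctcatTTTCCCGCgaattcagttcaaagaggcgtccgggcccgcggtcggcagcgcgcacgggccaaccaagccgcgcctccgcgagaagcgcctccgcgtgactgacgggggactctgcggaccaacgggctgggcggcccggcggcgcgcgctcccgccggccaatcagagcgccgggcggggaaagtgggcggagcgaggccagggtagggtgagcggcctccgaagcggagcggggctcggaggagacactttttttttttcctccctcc
Phf19: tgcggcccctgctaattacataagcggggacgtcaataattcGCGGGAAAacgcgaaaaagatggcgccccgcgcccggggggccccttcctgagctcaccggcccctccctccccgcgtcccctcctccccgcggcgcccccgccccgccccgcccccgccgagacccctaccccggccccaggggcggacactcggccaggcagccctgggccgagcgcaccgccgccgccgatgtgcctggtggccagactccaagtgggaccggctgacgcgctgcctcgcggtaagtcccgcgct
Ezh1: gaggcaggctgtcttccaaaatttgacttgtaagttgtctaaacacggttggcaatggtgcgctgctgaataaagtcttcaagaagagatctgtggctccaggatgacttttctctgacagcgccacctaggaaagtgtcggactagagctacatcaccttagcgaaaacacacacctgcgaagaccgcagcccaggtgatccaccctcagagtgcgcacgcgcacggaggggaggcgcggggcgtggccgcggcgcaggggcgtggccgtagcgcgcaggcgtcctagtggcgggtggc

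All 10 members matched a RefSeq promoter, with 14 windows in all because Jarid2, Mtf2 and Aebp2 have more than 1. The E2F letters stood in 1 window each of Ezh2, Suz12 and Phf19 and in no other member's window. Of all 32851 promoters of the table, 744 held them, a share of 2.26%. The cell cycle homology region (CHR, TTTGAA) was found in windows of Suz12, Eed, Mtf2 and Aebp2, against 17.9% of all promoters. The CCAAT box was found 3 times in the Ezh2 window and at least once for every member but Ezh1 and Phf19, against 37.4% of all promoters. These shares are per promoter, whereas the members with more than 1 window had more places for a match. The windows of Ezh2, Suz12 and Phf19 held 31, 41 and 38 CpG dinucleotides and that of Ezh1 held 23, against a median of 7 over all promoters. Each E2F string searched holds a CpG, and the 2.26% share was not matched for CpG content. A match describes the letters and is not evidence of a bound site, and these windows come from a different genome build than the one named for the counts.

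Between 12597472 and 43443132 counts per library fell in genes, and each member had from 16 (Phf19) to 26924 (Rbbp4) counts in a library. Levels are given as CPM, gene counts scaled to a common library size with TMM. Sums over marker lists differed between the groups. Summed over the 27 proliferation genes measured, expression was 2413 to 2822 CPM at P14, the lowest range of any group, 3554 to 3680.5 CPM at E15.5, 3755 to 6031 at P1, 4880.2 to 6665 at P7 and 7386 to 9151 in MB. Oligodendrocyte, endothelial and astroglial sums were lower in the E15.5 libraries than in every postnatal GNP library, and that of GABAergic interneurons was higher. The 8 oligodendrocyte genes summed to 67.9 to 102 CPM in the E15.5 libraries, 584 to 3539.7 at P1, 894 to 1741 in the P7 libraries, 5394 to 5869 at P14 and 652 to 957 in MB, and all 8 were called higher at P1 than at E15.5. The 6 endothelial genes summed to 11.2 to 30.5, 376 to 567, 285 to 348, 691 to 725 and 17.6 to 31.5 CPM in the same order. The 7 astroglial genes summed to 156 to 357 CPM at E15.5, 1797 to 4149.8 over the postnatal libraries and 978 to 1361 in MB. The 6 GABAergic interneuron genes summed to 569.9 to 702 CPM at E15.5, 337 to 382 at P1, 273 to 464 over the P7 and P14 libraries and 89.5 to 144 in MB, and 5 of the 6 were called lower at P1 than at E15.5. The 6 choroid plexus genes ranged most, from 14.8 CPM in a P7 library to 10409.6 in P1 replicate 2. Their sums were 27.4 to 295 CPM at E15.5, 300 to 10409.6 at P1 and 14.8 to 1989 in the P7 libraries. They were high in every P14 library, at 5159 to 8558 CPM, and 36.4 to 193 CPM in MB. No gene of these 5 lists was at 0 in any group, and all 7 granule lineage genes were detected in every group, at sums of 2916 to 6884 CPM. These sums hide different courses. The means of Atoh1 were 129, 47.7, 30.6 and 11.9 CPM at E15.5, P1, P7 and P14, and 280 in MB. At P14 against E15.5, 3 of the 7 were called higher and 1 lower, where 26.7% of all genes were called higher and 24.2% lower. The part of this mixture in the results was not tested, and in bulk RNA fewer cells of a type and less RNA per cell cannot be told apart.

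Ezh2 fell between the embryo and P14 and was highest in the tumour cells. The gene (ENSMUSG00000029687) spans 47480273 to 47545029 on the minus strand of chromosome 6 in the authors' transcript table (build mm9 in the submitters' processing notes), with 20 exons. Its 3 libraries read 209.7, 220.2 and 244 CPM at E15.5, 189, 171 and 127 at P1 and 159, 254 and 204 in the P7 libraries. At P14 they read 105, 97.9 and 102, and in MB 343, 377 and 330.2. Every P14 library lay below every library of the other groups, and every MB library lay above every GNP library of any age. Within P1 and P7 the libraries were spread widely, with P1 replicate 3 and P7 replicate 1 lowest in their groups, and the P7 range took in most of the P1 and E15.5 values.

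The group means were 225 ± 17.7 CPM at E15.5, 162 ± 31.5 at P1, 205 ± 47.3 in the P7 group, 101 ± 3.32 at P14 and 349.9 ± 24.0 in MB (SD, n = 3 each). Differences were tested over all genes with edgeR's quasi-likelihood test and called at an FDR (the Benjamini-Hochberg adjusted p) under 0.05. Ezh2 differed among the 4 ages (FDR 6.49e-04). It was 2.22-fold lower at P14 than at E15.5 (log2 -1.15, SE 0.19, FDR 1.42e-04) and 2.03-fold lower than at P7 (log2 -1.02, SE 0.19, FDR 0.00873). The step from P1 to P14 was 1.60-fold (log2 -0.68, SE 0.19, FDR 0.0362). That between P1 and P7 was not called (FDR 0.325), and neither was that between E15.5 and P7 (FDR 0.600).

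The P14 level against E15.5 was called lower under each of the 15 alternative settings and left-out libraries that gave a value. The call against P1 was less stable. It was lost when any of the P14 replicates, P1 replicate 1 or P1 replicate 2 was left out, with log2 values of -0.70 to -0.56, and with offsets for GC content and length (log2 -0.49). The call against P7 was lost without P14 replicate 2 (log2 -0.99, FDR 0.0536) and with a term for the counting set (log2 -1.02, FDR 0.0642). Counting sets split the libraries by their reads of the gene Tsnax. From that gene, a difference in how the count table was made was inferred. The fall from E15.5 to P1 (log2 -0.47, SE 0.18, FDR 0.0491) lay at the threshold and was lost in 11 of 15 alternatives, including within 1 counting set, which leaves E15.5 replicate 2 alone for its age, and without P1 replicate 3 (log2 -0.32), which had the lowest Ezh2 level of its group. P1 replicate 3 also had the lowest summed proliferation genes of its group (3755 CPM against 5312 and 6031) and the highest oligodendrocyte sum (3539.7 CPM against 584 and 924). The part of either in the P1 value was not tested.

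In MB, Ezh2 was 1.70-fold higher than at P7 (log2 0.77, SE 0.19, FDR 0.00441) and 3.45-fold higher than at P14 (log2 1.79, SE 0.19, FDR 2.77e-06). It also exceeded the E15.5 level by 1.56-fold (log2 0.64, SE 0.18, FDR 0.00948) and the P1 level by 2.15-fold (log2 1.11, SE 0.19, FDR 2.38e-04). The calls against E15.5, P1 and P14 held in all 15 alternatives. That against P7 was lost only when the comparison was kept to libraries of 1 counting set, which leaves 1 MB library (log2 0.78, FDR 0.109). The 4 comparisons share the MB libraries.

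**Figure D1:**
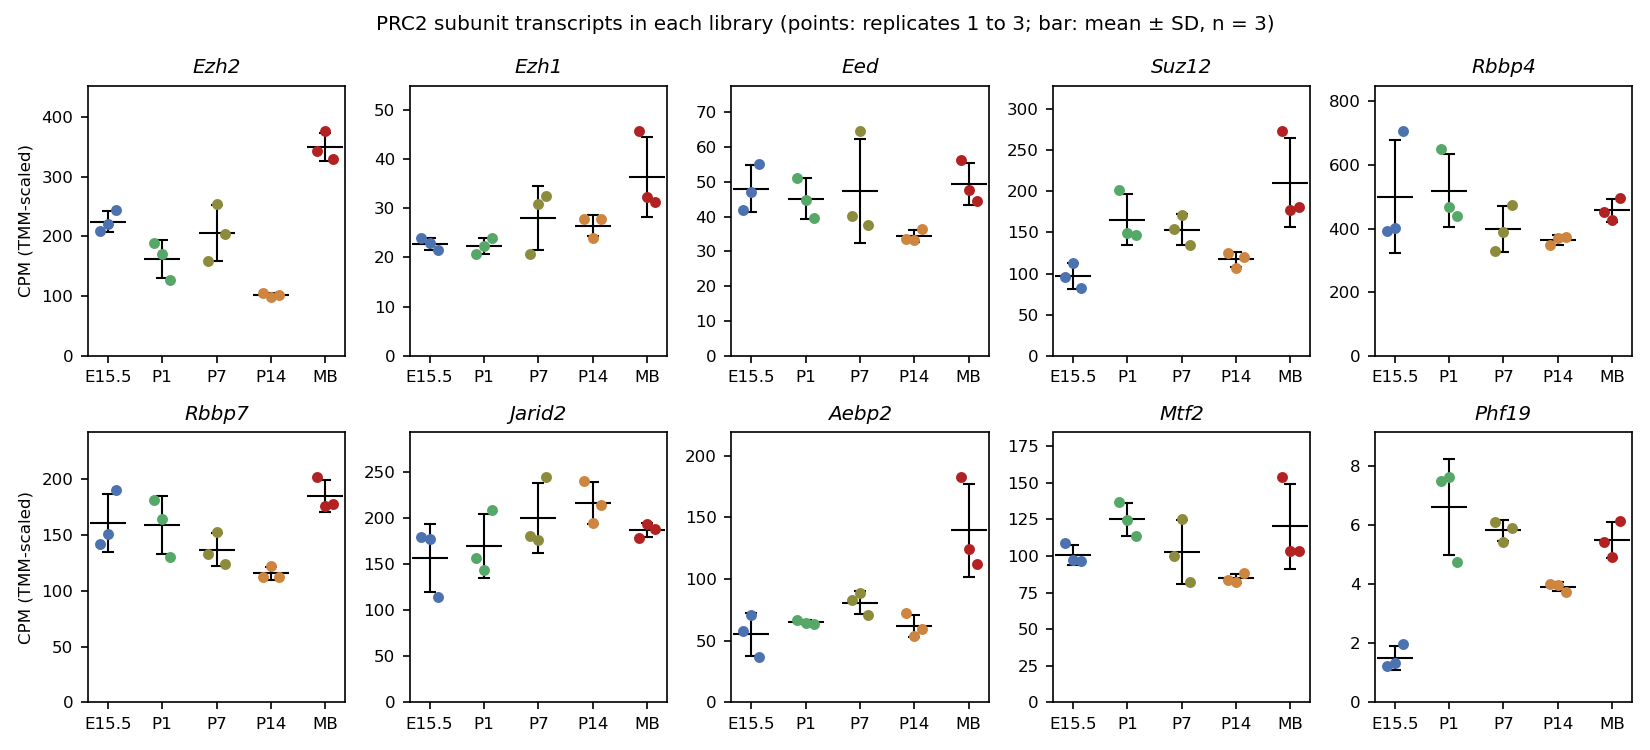
Level of each of the 10 PRC2 subunits (y axes, CPM after TMM scaling, each starting at 0) in the 3 libraries of each group (points), with mean and SD (bars, n = 3). Ezh2 is lowest in the 3 P14 libraries (mean 101 CPM) and highest in the 3 MB libraries (mean 349.9 CPM), while Phf19 is lowest at E15.5 (mean 1.51 CPM).

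Ezh1, the alternative catalytic subunit, showed no called difference among the 4 ages. The gene (ENSMUSG00000006920) lies on the minus strand of chromosome 11, from 101058703 to 101087740, with 15 exons. The libraries read 23.9, 22.9 and 21.5 CPM at E15.5, 20.7, 22.3 and 24.0 at P1, 20.7, 30.9 and 32.5 in the P7 libraries and 27.7, 23.9 and 27.8 at P14. In MB they read 45.7, 32.3 and 31.2. The lowest P14 library lay just above the highest E15.5 one, both near 23.9 CPM, and every other pair of ages overlapped. No pair of ages was called (4-age test, FDR 0.377).

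Ezh1 was called higher in MB (36.4 ± 8.08 CPM) than at E15.5 (1.60-fold; log2 0.68, SE 0.20, FDR 0.0122) and than at P1 (1.63-fold; log2 0.70, SE 0.20, FDR 0.0128). Against P7 (FDR 0.171) and P14 (FDR 0.0734) it was not called. MB replicate 1 stood above the others at 45.7 CPM, and MB replicates 2 and 3 lay below the highest P7 library. The E15.5 call was lost when only the E15.5 and MB libraries were fitted (FDR 0.0686) and within 1 counting set (log2 0.48, FDR 0.0609), where E15.5 replicate 2 stood alone for its age and was assumed to vary like the other groups.

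Per kb of exon, Ezh2 transcripts exceeded those of Ezh1 in every library, so Ezh1 held the smaller share of the catalytic pair throughout. The share of Ezh1 in the sum of Ezh1 and Ezh2, both in CPM per kb, was 7.68%, 7.04% and 6.04% in the E15.5 libraries and 7.42%, 8.69% and 12.1% at P1. It was 8.66%, 8.17% and 10.4% at P7, 16.2%, 15.1% and 16.6% at P14, and 8.86%, 5.88% and 6.44% in MB. The 3 P14 libraries lay above all 12 others.

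The mean share was 16.0% ± 0.767 at P14 and 9.39% ± 2.40 at P1, a difference of 6.59 percentage points (exact two-sided permutation test, p = 0.1). Against the E15.5 mean of 6.92% ± 0.824 the difference was 9.06 points (exact two-sided permutation test, p = 0.1). With 3 libraries against 3, 0.1 is the smallest p this test can give. The MB mean of 7.06% ± 1.58 and the P7 mean of 9.08% ± 1.18 overlapped, with a difference of -2.02 points (exact two-sided permutation test, p = 0.3). Adjusted over these 3 tests, the p-values were 0.15, 0.15 and 0.3 (Benjamini-Hochberg, exact permutation tests). The Ezh1 level itself was 26.5 CPM at P14 against 22.3 at P1, while Ezh2 was 101 against 162 CPM.

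**Figure D2:**
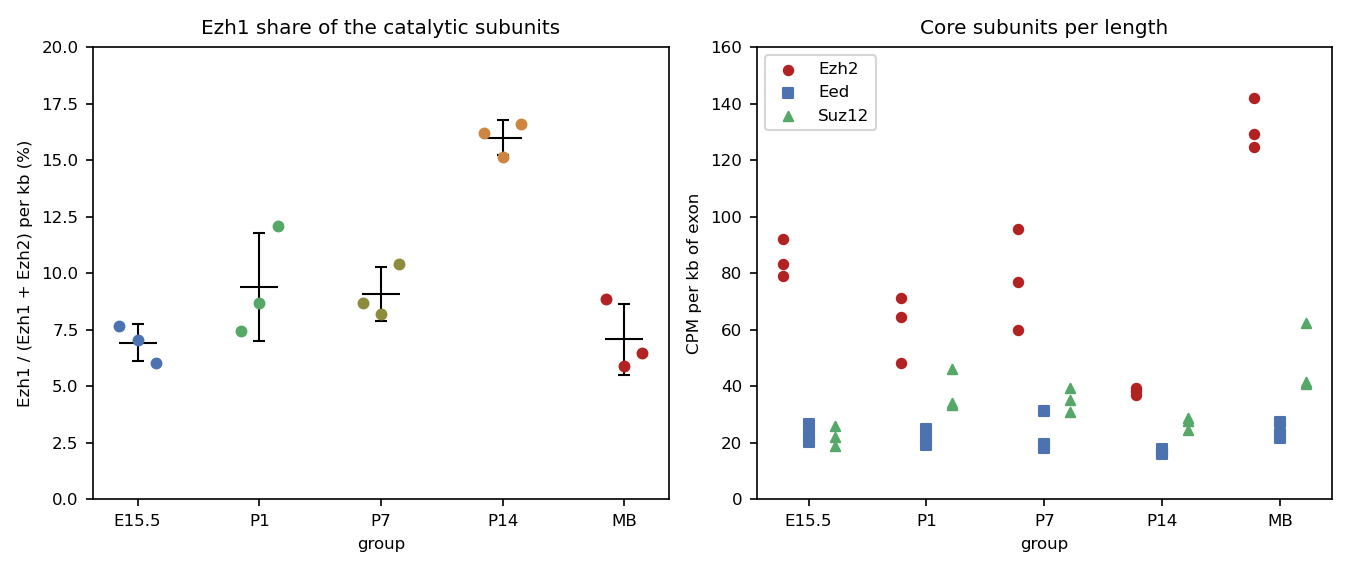
Left, share of Ezh1 in the sum of Ezh1 and Ezh2 transcripts per kb of exon (%, points are libraries, bars are mean and SD, n = 3 per group). Right, CPM per kb of Ezh2, Eed and Suz12 in each library. The P14 shares sit at 15.1% to 16.6%, above the 5.88% to 12.1% of all other libraries, and Ezh2 exceeds Eed and Suz12 in every library.

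Of the core partners, Suz12 was higher at P1 and P7 than at E15.5, and Eed was called in 1 comparison. Suz12 (ENSMUSG00000017548) lies on the plus strand of chromosome 11, from 79806608 to 79847625, with 16 exons. Its libraries read 96.4, 113 and 82.1 CPM at E15.5, 201, 149 and 146 at P1, 154, 172 and 135 in the P7 libraries and 125, 107 and 120.3 at P14. In MB they read 273, 177 and 181. All P1 and P7 libraries lay above all E15.5 libraries, the P14 libraries overlapped with E15.5, and MB replicate 1 was the highest of all.

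Suz12 was 1.71-fold higher at P1 than at E15.5 (log2 0.77, SE 0.20, FDR 0.00570) and 1.58-fold higher at P7 (log2 0.66, SE 0.20, FDR 0.0171). Offsets for GC content and length brought the first value to log2 0.39 and the second to 0.36, still called. Within 1 counting set, with E15.5 replicate 2 alone for its age, the first missed the threshold (log2 0.55, FDR 0.0580). The second was lost without E15.5 replicate 3, P7 replicate 1 or P7 replicate 2 (log2 0.52 to 0.62). The P14 level (117 ± 9.17 CPM) differed by a call from no other age. In MB Suz12 was 2.17-fold higher than at E15.5 (log2 1.12, SE 0.20, FDR 2.98e-04) and 1.79-fold higher than at P14 (log2 0.84, SE 0.20, FDR 0.00267), both called in every alternative. Within 1 counting set, which leaves E15.5 replicate 2 and MB replicates 2 and 3, the value against E15.5 was log2 0.68.

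Eed (ENSMUSG00000030619, chromosome 7, 97103166 to 97129493, minus strand) had means of 48.0 ± 6.64, 45.1 ± 5.84, 47.4 ± 14.9, 34.3 ± 1.74 and 49.4 ± 6.10 CPM at E15.5, P1, P7, P14 and in MB. The P14 libraries read 33.4, 33.2 and 36.3 CPM, below every other library, and P7 replicate 2 was the highest at 64.5. Its only call was MB against P14 (log2 0.53, SE 0.21, FDR 0.0450). That call was lost in 8 of 16 alternatives, among them each P14 replicate left out (log2 0.50 to 0.57) and without MB replicate 1 (log2 0.42) or MB replicate 2 (log2 0.55). Between E15.5 and P14 Eed read lower without a call (log2 -0.49, SE 0.21, FDR 0.0610). It was called there by DESeq2 (FDR 0.0496), with only the groups compared, with the TSS table and with GC and length offsets.

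Between them, Ezh2, Eed and Suz12 form the part of PRC2 needed for activity. In CPM per kb, Ezh2 made up 65.1% ± 1.91 of the sum of the 3 at E15.5 and 64.9% ± 5.21 in MB (SD, n = 3). At P1 it made up 50.5% ± 2.95, at P7 57.0% ± 4.43 and at P14 46.8% ± 0.827. The E15.5 and MB libraries overlapped, and all P14 libraries lay below all others. Ezh2 per kb was 2.18 to 2.44 times Eed at P14 and 4.75 to 6.17 times Eed in MB. These proportions were computed after the values were known and carry no test.

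The histone-binding subunit Rbbp4 had the highest group mean per length at every age. In P7 replicate 2, Ezh2 was above it (95.6 against 88.4 CPM per kb). Rbbp4 (ENSMUSG00000057236, chromosome 4, 128984344 to 129012614, minus strand) had means of 114, 118, 90.4, 82.7 and 104 CPM per kb in the order of the groups, and Ezh2 had 84.7, 61.2, 77.5, 38.2 and 132. In MB, Ezh2 had the highest mean per kb of the 9 members with a length. Rbbp4 was called in no comparison. Its E15.5 libraries read 394, 401 and 707 CPM, with replicate 3 far above the others. That library was also the deepest of all and had the lowest Jarid2 and Aebp2 levels of the 15.

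Rbbp7 (ENSMUSG00000031353, chromosome X, 159198334 to 159217024, plus strand) had means of 161 ± 26.1 CPM at E15.5, 159 ± 26.0 at P1, 137 ± 14.7 in the P7 group, 116 ± 5.94 at P14 and 185 ± 14.4 in MB. Only the span from E15.5 to P14 was called among the ages (log2 -0.48, SE 0.17, FDR 0.0255), and the 4-age test was not passed (FDR 0.0677). The call was lost with the counting set term (log2 -0.36), within 1 set, with E15.5 replicate 2 alone for its age (log2 -0.40), and without E15.5 replicate 3, P14 replicate 1 or P14 replicate 3 (log2 -0.46 to -0.40). In MB, Rbbp7 was 1.60-fold higher than at P14 (log2 0.68, SE 0.17, FDR 0.00324) and this held in all 16 alternatives. The MB libraries (202, 176 and 178 CPM) lay above all P7 and P14 libraries. Against P7 the difference missed the threshold (log2 0.44, SE 0.17, FDR 0.0530) and passed it with DESeq2 (FDR 0.0227) and in 4 other alternatives.

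**Figure D3:**
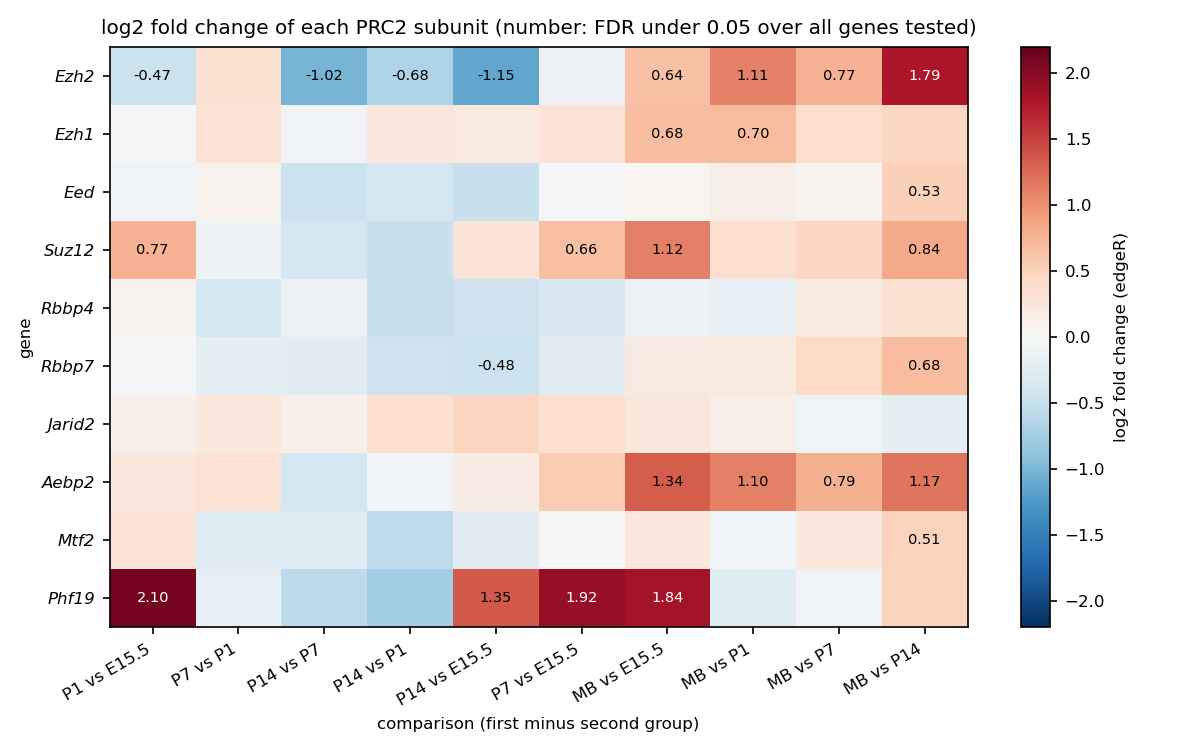
Log2 fold change of each member (rows) in each of 10 comparisons (columns, first group minus second), from edgeR. Red is higher and blue lower in the first group, and a number is printed where the FDR over all 15259 genes was under 0.05. Ezh2 is called in 8 columns, and Rbbp4 and Jarid2 in none.

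Of the accessory subunits, Aebp2 was called in MB against every age and Phf19 in every group against E15.5, while Mtf2 was called in 1 comparison and Jarid2 in none. Jarid2 (ENSMUSG00000038518, chromosome 13, 44826640 to 45017012, plus strand), which binds ubiquitinated H2A and recruits PRC2.2, had overlapping libraries in most groups. Its libraries read 179, 177 and 114 CPM at E15.5, 156, 144 and 209 at P1, 180.3, 176 and 244 in the P7 libraries, 240.5, 195 and 214 at P14 and 179, 193 and 188 in MB. The exception was that all P14 libraries lay above all E15.5 and all MB libraries. The P14 and E15.5 means, 216 ± 23.0 and 157 ± 37.0 CPM, differed at an unadjusted p of 0.0380 (FDR 0.0698, edgeR).

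Aebp2 (ENSMUSG00000030232, with no transcript matched and so no length), the zinc-finger partner of Jarid2 in PRC2.2, was the member besides Ezh2 that was called higher in MB than at every age. Its libraries read 58.1, 71.2 and 36.5 CPM at E15.5, 66.9, 64.3 and 63.8 at P1, 82.9, 88.9 and 70.7 in the P7 libraries, 72.2, 54.2 and 59.6 at P14 and 182, 124 and 112 in MB. All MB libraries lay above all GNP libraries, with MB replicate 1 far above the others.

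The Aebp2 level in MB was 2.53-fold that at E15.5 (log2 1.34, SE 0.24, FDR 2.39e-04), 2.15-fold that at P1 (log2 1.10, SE 0.23, FDR 0.00161), 1.73-fold that at P7 (log2 0.79, SE 0.23, FDR 0.0157) and 2.25-fold that at P14 (log2 1.17, SE 0.23, FDR 7.13e-04). The P7 call was lost without MB replicate 1 (log2 0.55, FDR 0.0672) or P7 replicate 3 (log2 0.70, FDR 0.0630). The other 3 held in all 13 alternatives, although within 1 counting set, with E15.5 replicate 2 alone for its age, the value was log2 0.74. Among the 4 ages Aebp2 was not called (FDR 0.200).

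Phf19 and Mtf2, the Polycomb-like subunits that read H3K36 methylation and bind CpG-rich DNA, differed widely in level and in course. Per kb, Mtf2 had 24.8 CPM at E15.5 and 25.3 at P7, where Phf19 had 0.403 and 1.55. Phf19 (ENSMUSG00000026873, chromosome 2, 34749277 to 34769496, minus strand) read 1.22, 1.34 and 1.97 CPM at E15.5, 7.47, 7.60 and 4.75 at P1, 6.11, 5.44 and 5.89 in the P7 libraries, 4.01, 3.98 and 3.74 at P14 and 5.43, 4.91 and 6.12 in MB. All E15.5 libraries lay below all 12 others.

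Phf19 was 4.38-fold higher at P1 than at E15.5 (log2 2.10, SE 0.27, FDR 2.65e-05), 3.85-fold higher at P7 (log2 1.92, SE 0.27, FDR 6.93e-05), 2.59-fold higher at P14 (log2 1.35, SE 0.27, FDR 7.42e-04) and 3.64-fold higher in MB (log2 1.84, SE 0.27, FDR 4.76e-05). These 4 comparisons share the E15.5 libraries, and each held in all 15 alternatives. The gene was the lowest member, with 16 to 209 counts in a library. From P1 to P14 it read lower without a call (log2 -0.75, SE 0.25, FDR 0.0738) and was called by DESeq2 (FDR 0.0213), without P1 replicate 3 (log2 -0.94, FDR 0.0209) and in 3 other alternatives.

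Mtf2 (ENSMUSG00000029267, chromosome 5, 108494761 to 108538023, plus strand) read 109, 96.9 and 96.5 CPM at E15.5, 137, 125 and 114 at P1, 100.1, 125 and 82.2 in the P7 libraries, 83.6, 82.1 and 88.0 at P14 and 154, 104 and 103 in MB. The P1 libraries lay above all P14 libraries, and MB replicate 1 was the highest of the 15. Its only call was MB against P14 (log2 0.51, SE 0.19, FDR 0.0330), lost in 7 of 16 alternatives. Without MB replicate 1 the value was log2 0.29 (FDR 0.158), and it was lost too without any 1 of the P14 replicates (log2 0.48 to 0.54). From P1 to P14 Mtf2 read lower without a call (log2 -0.56, SE 0.19, FDR 0.0691). The per-kb ratio of Jarid2 to Mtf2, computed after the values were known and not tested, was 1.61 to 1.95 at P14, 0.774 to 1.25 at P1, 0.948 to 2.01 at P7, 0.801 to 1.24 at E15.5 and 0.788 to 1.26 in MB.

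Across the 4 ages, each step was read against the share of all genes called in it. From E15.5 to P1, 2 members were called higher (Suz12 and Phf19) and 1 lower (Ezh2), where 25.4% of all genes were called higher and 20.9% lower. The median log2 change was 0.08 over the members and 0.03 over all genes. From P1 to P7 no member was called in edgeR's test, none had an unadjusted p under 0.05 and DESeq2 called none. The background there was 1.40% of genes higher and 1.74% lower. From P7 to P14, 9 of 10 members had values below 0 and Ezh2 was called, where 5.81% of genes were called higher and 4.51% lower, and the medians were -0.33 for the members and -0.00499 for all genes.

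From P1 to P14, 8 of 10 members had values below 0, all but Ezh1 and Jarid2. Only Ezh2 was called in edgeR's test, where 3.63% of genes were called higher and 5.31% lower. At an unadjusted p under 0.05 the number was 6, all lower, and DESeq2 called 3, Ezh2, Mtf2 and Phf19, where it called 7.84% of all genes lower. The member median was -0.47 and that of all genes 0.01 on the log2 scale. Fitted on the P1 and P14 libraries alone, 6 members were called lower, as were 14.6% of all genes. Within the counting set that holds both groups 7 were (Ezh2, Eed, Suz12, Rbbp4, Rbbp7, Mtf2 and Phf19), as were 16.3% of all genes. Without P1 replicate 3, which lay nearest to P14 in Ezh2 and Phf19 among the P1 libraries, 3 were called lower (Ezh2, Rbbp7 and Phf19) against 7.96% of all genes, and without any other 1 of the P1 or P14 libraries none was, against 0.939% to 1.60% of all genes. From E15.5 to P14, 1 member was called higher (Phf19) and 2 lower (Ezh2 and Rbbp7), against 26.7% and 24.2% of all genes. From E15.5 to P7, 2 were called higher (Suz12 and Phf19) and none lower, against 21.6% and 16.2% of all genes. For any difference among the 4 ages, 3 of 10 members were called (Ezh2, Suz12 and Phf19) against 55.7% of genes, and 5 by DESeq2 against 70.3%.

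In MB no member was called lower than in any GNP group by edgeR's test. Against P7, 2 members were called higher (Ezh2 and Aebp2), with 4 at an unadjusted p under 0.05 and 3 by DESeq2 (which called 16.6% of all genes higher), where edgeR called 13.7% of genes higher and 20.7% lower. The median was 0.30 over the members and 0.02 over all genes. Against P14, 6 members were called higher (Ezh2, Aebp2, Suz12, Rbbp7, Eed and Mtf2), where 22.9% of genes were called higher and 27.2% lower, with medians of 0.52 and 0.01. At an unadjusted p under 0.05, 0 members were lower in MB than in any GNP group, and DESeq2 called 0 lower. Against E15.5, 5 were called higher, where 26.0% of all genes were called higher and 24.2% lower, and against P1, 3 were, where 16.1% were called higher and 22.6% lower. MB replicate 1 was the highest of the 15 libraries in Ezh1, Suz12, Aebp2, Mtf2 and Rbbp7. It was also the only MB library of its counting set and had the highest microglial marker sum (448 CPM, against 158 to 186 in the other MB libraries and 9.19 to 193 in the GNPs). Neither was tested for its part in these levels.

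**Figure D4:**
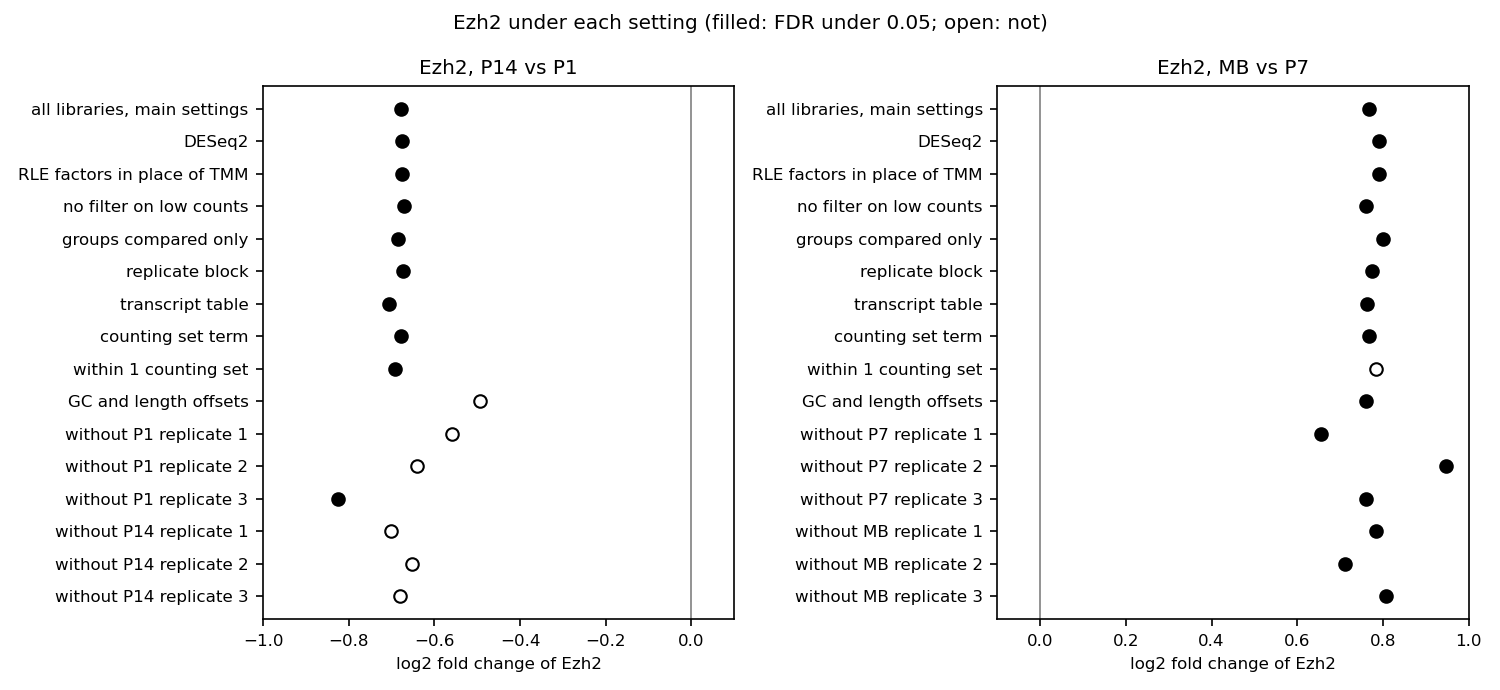
Log2 fold change of Ezh2 (x axes) for P14 against P1 (left) and MB against P7 (right) under each setting and with each library left out (rows). Filled points have an FDR under 0.05. All P14 values lie between -0.83 and -0.49 and all MB values between 0.66 and 0.95, but 6 of the P14 points and 1 of the MB points are open.

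Genes that work with or against PRC2 were taken from a fixed list of 10, of which 9 were tested. They were Phf1, the third Polycomb-like protein, the PRC2.1 partners Epop and Lcor, the H3K27 demethylases Kdm6a and Kdm6b, the related gene Jmjd1c, and the H3K36 methyltransferases Nsd1, Nsd2 and Setd2, whose mark hinders PRC2. Ezhip, an inhibitor of the enzyme, is not analysed here. From E15.5 to P1, where 25.4% of all genes were called higher and 20.9% lower, 2 of the 9 rose and 1 fell. Those that rose were Jmjd1c (154 ± 45.7 to 269 ± 34.3 CPM, FDR 0.0267) and Nsd2 (409 ± 94.2 to 587 ± 61.4 CPM, FDR 0.0363), and Phf1 fell (43.1 ± 6.62 to 22.4 ± 2.19 CPM, FDR 0.00299). None was called by edgeR's test from P1 to P7, from P7 to P14, from P1 to P14 or between P7 and MB. In these 4 comparisons 1, 2, 3 and 0 of the genes had an unadjusted p under 0.05, and DESeq2 called 0, 0, 1 and 0.

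Against E15.5, Epop (log2 1.27, FDR 0.0220) and Jmjd1c (log2 0.95, FDR 0.00995) were higher at P14, and Epop, Kdm6a and Jmjd1c were higher at P7 (log2 1.24, 0.64 and 1.19). The P7 and E15.5 libraries overlapped for Kdm6a, with P7 replicate 3 at 65.4 CPM and E15.5 replicate 2 at 72.5. The shares of all genes called higher than at E15.5 were 26.7% at P14 and 21.6% at P7. In MB, Kdm6a (log2 0.62, FDR 0.0363), Nsd2 (log2 0.86, FDR 0.00167) and Setd2 (log2 0.65, FDR 0.0402) were higher than at P14. The MB and P14 libraries overlapped for Setd2, with MB replicate 3 at 214 CPM and P14 replicate 1 at 221. Epop was called higher in MB than at P1 (log2 1.84, FDR 0.00342), but its MB libraries were spread widely, at 19.5, 77.6 and 63.6 CPM. MB replicate 1 lay below P1 replicate 3 (20.1 CPM), so these 2 groups overlapped. Against E15.5, Epop, Kdm6a, Jmjd1c and Nsd2 were higher in MB (log2 2.07, 0.83, 1.11 and 0.82) and Phf1 lower (log2 -0.91). Of all genes, 22.9% were called higher in MB than at P14, 16.1% than at P1 and 26.0% than at E15.5. Those called lower in MB than at E15.5 made up 24.2%. Lcor, Kdm6b and Nsd1 were called in no comparison, with means of 25.2 to 40.7, 161 to 252 and 375 to 497 CPM over the 5 groups.

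Genes of PRC1, the partner complex that reads H3K27me3 and ubiquitinates H2A, and genes of the cell cycle were set beside the members. Of 20 PRC1 genes tested, none was called between P1 and P14 by edgeR (6 had an unadjusted p under 0.05, and DESeq2 called 2), and 4 were called higher and 1 lower in MB than at P7, with Pcgf5 (log2 1.13, FDR 0.00495) and Cbx2 (log2 0.75, FDR 0.00641) among those called. The shares of all genes in that comparison were 13.7% higher and 20.7% lower. Of 27 proliferation genes tested, 17 fell from P1 to P14 and none rose, with a median log2 change of -0.90, where 5.31% of all genes were called lower. The largest falls were in the replicative helicase gene Mcm6 (log2 -1.63, FDR 9.32e-04) and the origin-licensing gene Cdc6 (log2 -1.35, FDR 0.00247). In MB against P7, 13 of the 27 rose and none fell (median 0.57), led by the helicase genes Mcm2 (log2 1.44, FDR 7.97e-05) and Mcm6 (log2 1.26, FDR 2.82e-04). Ezh2 had log2 values of -0.68 and 0.77 in these comparisons, and the median over all genes was 0.01 and 0.02. From E15.5 to P1, 6 of the 27 rose and none fell (median 0.33), where 25.4% of all genes were called higher and 20.9% lower. Ezh2 was called lower in that comparison (log2 -0.47). From E15.5 to P7, 7 of the 27 rose and none fell (median 0.27), where 21.6% of all genes were called higher and 16.2% lower. Ezh2 was not called there.

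Of 20 granule neuron maturation genes, 4 rose from P1 to P14 and none fell (median 0.98), where 3.63% of all genes were called higher. Among the 4 were Chn2 (log2 1.55, FDR 0.0340) and the synaptic gene Snap25 (log2 1.53, FDR 0.0313). The P1 libraries were uneven in these genes: replicate 3 summed to 8799.9 CPM, against 5722 and 4845 in the others, and Snap25 read 239 ± 199 CPM at P1. The part of that library in these changes was not tested. In MB against P7, 13 of the 20 fell and none rose (median -1.63), where 20.7% of all genes were called lower. The largest falls were in the transcription factor gene Neurod2 (log2 -5.69, FDR 1.96e-06) and Chn2 (log2 -3.84, FDR 1.47e-05). In the same comparisons Ezh1 was not called, with 26.5 ± 2.21 CPM at P14, 22.3 ± 1.62 at P1, 28.0 ± 6.42 in the P7 group and 36.4 ± 8.08 in MB.

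The genes whose log2 CPM followed Ezh2 most closely over the 15 libraries were named by a fixed rule, among 11575 tested genes with a symbol and a mean of at least 5 CPM. The 5 nearest were Tgif1, a homeobox repressor (Pearson r = 0.982), Chaf1b, a subunit of the histone chaperone that follows replication forks (0.974), Sncaip (0.968), the PRC1 subunit Cbx2 (0.966) and 2810004N23Rik (0.961). Their means, like that of Ezh2, were lowest at P14 and highest in MB, with Tgif1 at 19.1 and 80.2 CPM and Cbx2 at 42.3 and 130.0 CPM. Among the members, Rbbp7 came nearest to Ezh2 (r = 0.824, rank 488), then Eed (0.746, rank 1015), Aebp2 (0.582), Mtf2 (0.498), Ezh1 (0.470), Suz12 (0.446) and Rbbp4 (0.401), and Jarid2 ran the other way (-0.343). Phf19 lay under the 5 CPM limit.

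The 5 genes nearest to Ezh1 were the helicase gene Ddx55 (Pearson r = 0.911), Gnptab, which tags lysosomal enzymes (0.909), the splicing kinase gene Srpk2 (0.909), the immune signalling kinase gene Irak1 (0.903) and the centriole gene Odf2 (0.885). Their group means were highest in MB, as for Ddx55 with 35.1 to 40.7 CPM over the ages and 54.5 in MB. The nearest member was Aebp2 (r = 0.772, rank 113). These correlations describe 15 libraries in 5 groups, which share their groups, depth and composition, and carry no test.

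**Figure D5:**
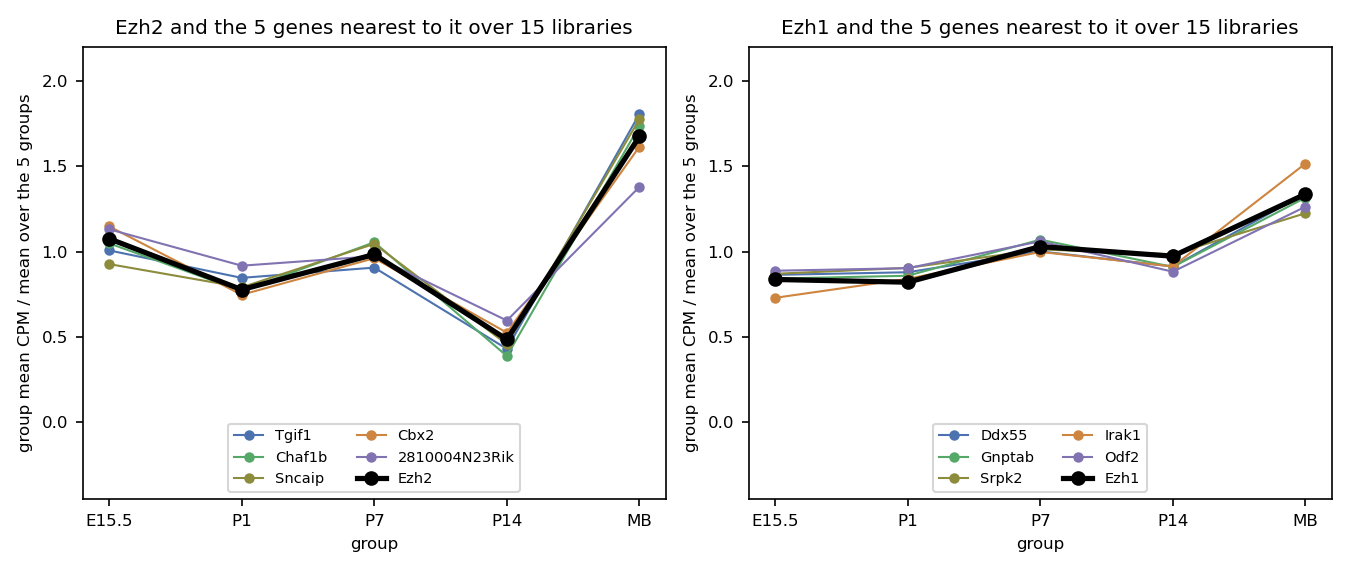
Group means of Ezh2 (left, black) and Ezh1 (right, black) and of the 5 genes nearest to each by correlation over 15 libraries (coloured), each divided by its own mean over the 5 groups. The Ezh2 set dips at P14 and peaks in MB, and the Ezh1 set is flatter over the 4 ages and also peaks in MB.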

How the data were processed

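RNA-seq libraries (poly(A) RNA, TruSeq v2, Illumina, per the labels' protocols) were analysed from 15 samples in 5 groups of 3. The authors deposited raw read counts per gene, and separate tables of counts per transcription start site (TSS) model and per transcript. The submitters' processing notes name Trimmomatic, TopHat, StringTie, HTSeq and build mm9, with no role or version, and the strand setting is not given in the sources used here. Lines that name no gene were left out, as were reads they hold: 22.9% to 44.6% of records had several alignments, 14.1% to 29.2% lay in no gene and 0.520% to 0.749% lay over more than 1. Symbols were matched by Ensembl ID (20358 of 21889 genes), exon lengths and positions by transcript (24438 of 28246 transcripts), and promoters by symbol.

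Low genes were removed with filterByExpr at a minimum count of 10 and a minimum total of 15, and counts were scaled with TMM and fitted with 1 mean per group over all 15 libraries in edgeR 4.0.16 (R 4.3.3), which leaves 10 residual degrees of freedom. The quasi-likelihood F-test was adjusted over all 15259 genes. SE is the size of the log2 fold change divided by the square root of F. The fit was tested on simulated data with 200 changed genes. Alternatives were DESeq2 1.42.0, RLE factors, no filter, only the groups compared, the replicate number as a block, the transcript and TSS tables, offsets for GC content and length, each library left out, and 2 on the counting set. In 6 libraries (MB replicate 1, the 3 at P7 and E15.5 replicates 1 and 3), Tsnax had under 0.5 times its transcript-table reads in the gene table, and these 6 and the other 9 are called counting sets. The members' gene-table reads were 93.6% to 100% of transcript-table reads in these 6 libraries and 91.2% to 100% in the other 9. Aebp2 matched no transcript and could not be compared in this way. Sets coincide with age in P7 against P1 and P14 against P7.

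Replicate numbers were not taken to pair libraries across groups, because no comparison had same-number correlations all over 0.1. The members and lists were chosen with earlier results of these data known. Named were the 10 members, the 5 genes nearest to Ezh2 and to Ezh1, every tested gene of the PRC2 list, and of the PRC1, proliferation and maturation lists the largest called changes in P14 against P1 and MB against P7, 2 each. Low counts limit precision most for Phf19, the lowest member.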

Additional observations from a re-analysis of the deposited data

How the results depend on the processing

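Signs were followed only where a member was called in a comparison by the reported fit or by any alternative. None of these log2 values reversed: of the recomputed values, 571 kept their side of the threshold, 48 fell below it and 37 passed it. Differences that no fit called, which include values near 0, were left out of these counts and may change sign. From E15.5 to P1, members called lower numbered 0 (from 1) without the filter, with only the groups compared, with the replicate block, with the transcript or TSS table, with the counting set term and within 1 set, and members called higher numbered 1 (from 2) with the TSS table and within 1 set. From P7 to P14, members called lower numbered 2 (from 1) with only the groups compared and 0 with the TSS table or the set term. From P1 to P14 they numbered 3 with DESeq2, 6 with only the groups compared, 0 with the TSS table, 2 with the set term and 7 within 1 set (from 1), and 1 (Jarid2) was called higher with GC and length offsets. Over all genes, those called lower from P1 to P14 numbered 810 of 15259 in the reported fit, 1196 with DESeq2, 905 with the set term, 2170 of 14833 with only the groups compared and 2534 of 15574 within 1 set. From E15.5 to P14, members called lower numbered 1 with the set term and 4 with GC and length offsets (from 2), and 0 were called higher with the TSS table (from 1). Members called higher in MB than at P7 numbered 1 with the transcript table, 0 with the TSS table and 1 within 1 set (from 2). Calls in the other pairs numbered 4 with the TSS table (from 10), and in the 4-age test 5 with DESeq2 and 1 with the TSS table (from 3). The TSS table holds 7 members, without Ezh2, Phf19 and Aebp2, the transcript table lacks Aebp2, and the set comparisons have fewer libraries, with 1 E15.5 or 1 MB library standing alone and assumed to vary like the other groups. The cause of the other changes was not tested. With 1 library left out, counts ranged from 0 to 1 (E15.5 to P1, lower), 0 to 1 (P7 to P14, lower), 0 to 3 (P1 to P14, lower), 1 to 2 (E15.5 to P14, lower) and 1 to 3 (MB against P7, higher). The replicate block moved no other count by over 1.5 times, with 5 members called higher in MB than at P14 (from 6). Counts of 16 to 209 per library limit Phf19.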
